A study of Homo sapiens with 15 samples.

Results

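CYTH4 and 5 genes that belong with it, the cytohesins CYTH1, CYTH2 and CYTH3 and the small GTPases ARF1 and ARF6, were followed in RNA sequencing of MDA-MB-231 cells depleted of the Hippo pathway co-regulators YAP and TAZ. The 6 genes were taken by symbol from a count table of 18858 genes, and all 6 had a row in it. CYTH4 was chosen by its counts, which were higher in the siYAP+TAZ than in the siControl libraries, and the other 5 were selected on their place in the same family or pathway. The values of CYTH4 in the siControl and siYAP+TAZ libraries are therefore given as a description with no test, as are its differences in any comparison that uses those libraries. The other 5 genes were tested in every comparison.

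MDA-MB-231 is an established triple-negative breast adenocarcinoma line. It was profiled in 5 groups of 3 libraries each, all of wild-type genotype per the labels. Control cells were untransfected. The other groups received, for 48 h, pooled siRNA named siControl (non-targeting), siYAP (against YAP1), siTAZ (against WWTR1, the gene of TAZ) or both targeting pools (siYAP+TAZ), so the co-knockdown received more siRNA in total than either single knockdown. The knockdown cells were then cultured on gelatin, a matrix on which they form invadopodia, for 5 to 6 h before RNA was taken. All libraries come from this 1 line after transient siRNA, and libraries are named here by group and by the number in their label (16 to 30). The question behind the comparisons is how the loss of YAP, TAZ or both alters gene expression in cells that degrade matrix.

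Cytohesins are guanine nucleotide exchange factors: their Sec7 domain loads ARF GTPases with GTP, and a pleckstrin homology domain brings them to phosphoinositides in the membrane. ARF1 works mainly in vesicle budding at the Golgi, whereas ARF6 works at the plasma membrane, where it governs endocytic recycling, cortical actin and, in invasive breast cancer cells, the delivery of proteases to the cell surface. CYTH1, CYTH2 and CYTH3 are broadly expressed, while CYTH4 is known mainly from blood cells.

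The siRNA pools are printed because they define the groups and because a short antisense seed can pair with transcripts other than its target. Each line gives a sense strand 5′ to 3′. The capitals mark the 7 bases that a transcript must share to pair with bases 2 to 8 of the antisense strand, called a seed site below. The lower-case a, c, g and u are the rest of the 19 bases.
siControl 1: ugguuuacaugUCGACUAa
siYAP 1: gcaccuaucacUCUCGAGa
siYAP 2: gaacauagaagGAGAGGAg
siYAP 3: ccaccaagcuaGAUAAAGa
siYAP 4: ggucagagauaCUUCUUAa
siTAZ 1: aagccuagcucGUGGCGGa
siTAZ 2: aggaacaaacgUUGACUUa
siTAZ 3: ggacaaacaccCAUGAACa
siTAZ 4: gacaugagaucCAUCACUa
Each siYAP strand matched 8 or 10 of the 11 annotated YAP1 transcripts in full, and each siTAZ strand 6 or 7 of the 12 WWTR1 transcripts. No strand shared more than 10 consecutive bases with the canonical transcript of any of the 6 genes. In the CYTH4 transcript 3 of the 4 siYAP strands and 1 of the 4 siTAZ strands had a seed site. In CYTH3 none of the 4 siYAP strands and 2 of the 4 siTAZ strands had one. ARF6 had a seed site for 1 siYAP and 3 siTAZ strands, CYTH1 for 1 and 1, CYTH2 for 1 and 2, and ARF1 for none. The 1 siControl strand read here had no site in any of the 6, and any other strand of that pool was not searched. Seed sites are common: the targeting strands have one in between 6.22% and 34.68% of 20020 canonical transcripts, and the siControl strand in 2.98%.

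Total counts ranged from 18696737 to 30107312 per library, with a median of 22902846. VIM, CD44, CAV1 and AXL, genes that mark this mesenchymal line, had between 10709 and 46841 reads in every library. Of 4 luminal breast markers only 2 had a row: PGR, at 7 reads or fewer, and GATA3, at 379 to 697. YAP1, the targeted gene of the siYAP pool, had normalised read counts of 4431, 4333 and 4202 in the siControl libraries 17, 22 and 27. In the siYAP libraries 18, 23 and 28 they were 1013, 2764 and 761, so library 23 kept far more YAP1 RNA than the other two. In the siYAP+TAZ libraries 20, 25 and 30 they were 2240, 2202 and 1796. WWTR1 had 1995, 1850 and 1579 in siControl, 828, 254 and 521 in the siTAZ libraries 19, 24 and 29, and 1133, 1123 and 1284 in siYAP+TAZ. Every co-knockdown library was thus below every siControl library for both targets, but held more WWTR1 RNA than any siTAZ library, and more YAP1 RNA than siYAP libraries 18 and 28. In edgeR's quasi-likelihood test, adjusted over all genes, neither target differed in the co-knockdown (YAP1 log2 fold change -1.06, adjusted p = 0.072, and WWTR1 -0.62, adjusted p = 0.20). In the single knockdowns YAP1 did not pass in siYAP (-1.51, adjusted p = 0.099), and WWTR1 was lower in siTAZ (-1.74, adjusted p = 0.019). All these tests share 1 estimate of the spread per gene over the 5 groups. The SD of YAP1 was 72.1% of its mean in siYAP, 2.66% in siControl and 11.8% in siYAP+TAZ. That of WWTR1 was 53.8% in siTAZ, 11.7% in siControl and 7.64% in siYAP+TAZ. The study itself reported efficient knockdown of both in this line by RT-qPCR and Western blot. It also listed YAP1 among both the proteins and the transcripts that differed.

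CYTH4 lies on the forward strand of chromosome 22 (GRCh38, chr22:37282027-37315341) in 17 exon blocks that overlap no other annotated gene. It was close to silent in cells with both co-regulators, somewhat higher after either single knockdown and highest after the co-knockdown. Its raw counts were 20, 7 and 14 in Control libraries 16, 21 and 26, and 23, 19 and 18 in siControl libraries 17, 22 and 27. They were 47, 51 and 62 in siYAP libraries 18, 23 and 28, 37, 26 and 43 in siTAZ libraries 19, 24 and 29, and 172, 195 and 346 in siYAP+TAZ libraries 20, 25 and 30. The lowest co-knockdown count thus lay above the highest of any other group. The exact Poisson 95% interval of counting was 2.81 to 14.4 reads for the lowest library and 310.5 to 384.4 for the highest, and covers counting error only.

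Scaled to a common library size, CYTH4 had a normalised read count of 15.5 ± 6.42 in Control, 18.8 ± 1.09 in siControl, 46.7 ± 14.8 in siYAP, 39.2 ± 13.9 in siTAZ and 243.8 ± 63.8 in siYAP+TAZ (mean ± SD, n = 3 libraries each). Control and siControl did not differ beyond their spread, nor did siYAP and siTAZ, whose libraries overlapped (36.0 to 63.7 and 30.5 to 55.3). The co-knockdown was 12.9-fold above siControl, a log2 fold change of 3.69 (SE 0.29). Without library 30, the highest, it was 3.46. siYAP was higher than siControl by 1.29 (SE 0.32) and siTAZ by 1.03 (SE 0.33) on the log2 scale. The co-knockdown exceeded siYAP by 2.4 (SE 0.26) and siTAZ by 2.66 (SE 0.27), and exceeded the sum of the single log2 differences by 1.37 (SE 0.43). All these comparisons share libraries with the choice of the gene and carry no test.

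**Figure D1:**
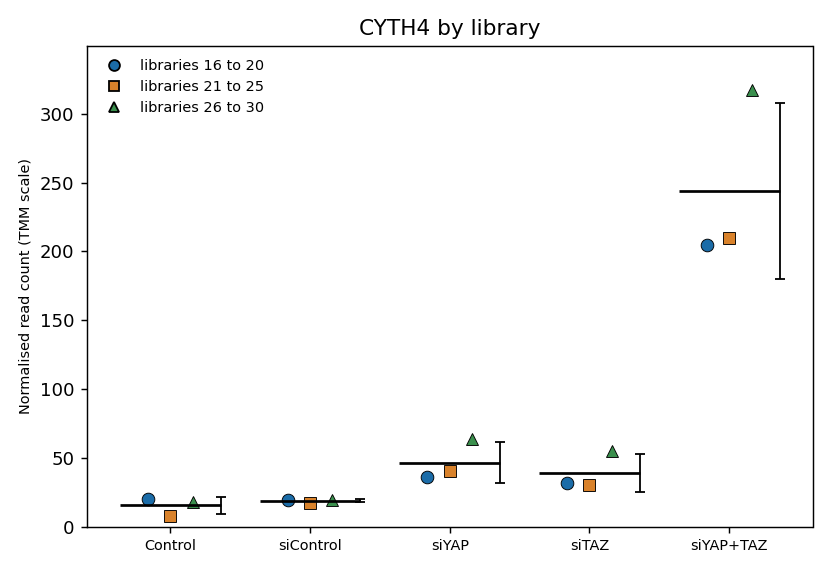
Normalised read count of CYTH4 (vertical axis, counts scaled by TMM) in each of the 15 libraries, by group. Points are libraries, coloured by library number, the horizontal line is the mean and the bar 1 SD (n = 3). The siYAP+TAZ libraries lie between 204.5 and 317.5, and no other library exceeds 63.7.

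The 3 Control libraries, none of which entered the choice of CYTH4, allowed the single knockdowns to be tested. Control cells were untransfected, so transfection and loss of the target cannot be told apart in these comparisons. In siControl against Control CYTH4 was at 0.27 (SE 0.39) on the log2 scale, a description with no test. The spread was estimated over all 15 libraries, including those that chose CYTH4. CYTH4 was higher in siYAP than in Control by a log2 fold change of 1.56 (SE 0.34, 95% interval 0.84 to 2.27), and this differed in edgeR's quasi-likelihood test (adjusted p = 0.027), in a comparison where 1.46% of all genes did. The call was lost when only these 2 groups were fitted (adjusted p = 0.11) and without siYAP library 28 (log2 fold change 1.29, adjusted p = 0.14) or Control library 16, 21 or 26 (1.81, 1.25 and 1.67, adjusted p = 0.0587, 0.147 and 0.05016), although every siYAP library lay above every Control library. Without library 23, the siYAP library with most YAP1 RNA, it was 1.65 (adjusted p = 0.045). In siTAZ against Control the log2 fold change was 1.30 (SE 0.36, 95% interval 0.55 to 2.05) and narrowly missed the threshold (adjusted p = 0.051). Here 3.4% of all genes differed, and again no library of one group overlapped the other. With DESeq2 the same comparison gave 1.31 (adjusted p = 0.012). The share of all genes without overlap was not counted for siYAP or siTAZ against Control.

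Since CYTH4 is known from blood cells, markers of such cells were read beside it. Of 10 listed haematopoietic markers 3 had a row, and PTPRC, the pan-leukocyte antigen CD45, was at 0 to 6 reads per library. The other 2 were CD14 at 11 to 47 reads and CSF1R, the macrophage colony-stimulating factor receptor, at 26 to 192. Their summed normalised read count was 59.9 ± 13.5 in siControl (46.1 to 73.0), 124.0 ± 8.97 in siYAP (116.8 to 134.1), 122.4 ± 26.5 in siTAZ (94.7 to 147.7) and 211.9 ± 6.27 in siYAP+TAZ (205.2 to 217.6), and so moved with CYTH4. CSF1R was the largest part of it, with means of 39.8, 88.4, 94.6 and 171.7 in siControl, siYAP, siTAZ and siYAP+TAZ. CD14 was also higher in each knockdown, with means of 16.7, 33.5, 26.3 and 38.5. PTPRC had means of 3.34 in siControl and 1.74 in siYAP+TAZ. The part of these genes in the CYTH4 result was not tested. In bulk RNA, more cells of a type and more RNA per cell cannot be told apart. Of 7 endothelial markers 3 had a row (KDR, TIE1 and CLDN5), and their sum was 311.0 in siControl and 250.9 in siYAP+TAZ.

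Of the paralogs, CYTH3 fell in the co-knockdown, and CYTH1 and CYTH2 did not differ in any comparison when fitted with no term for the run of library numbers. CYTH3, a phosphoinositide-responsive cytohesin also called GRP1, lies on the reverse strand (chr7:6161779-6272644, 16 exon blocks). Its normalised read counts were 2681, 2673 and 2956 in Control libraries 16, 21 and 26, and 2681, 2640 and 2799 in siControl libraries 17, 22 and 27. They were 2128, 2310 and 2180 in siYAP libraries 18, 23 and 28, 2438, 2084 and 2392 in siTAZ libraries 19, 24 and 29, and 1919, 2013 and 1905 in siYAP+TAZ libraries 20, 25 and 30. Every knockdown library was below every Control and siControl library, and every co-knockdown library was below every single-knockdown library. Outside siYAP+TAZ against siControl, where 36.4% of all genes had no overlap, the share of all genes so separated was not counted.

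In siYAP+TAZ against siControl the CYTH3 log2 fold change was -0.48 (SE 0.072, 95% interval -0.63 to -0.32), a change of -28.1%, with an adjusted p of 1.57e-04 in edgeR's quasi-likelihood test. It was the only one of the 5 tested genes that differed in this fit. Of all genes, 18.4% differed in this comparison, 8.39% being lower and 9.97% higher, and in 36.4% the 6 libraries did not overlap in one direction or the other, so 1 of 5 is near the background. The call held when each of the 6 libraries was left out in turn (log2 fold change -0.50 to -0.45, adjusted p at most 0.0014). Within the 3 runs of consecutive library numbers, the log2 difference of the co-knockdown library from the siControl library was -0.48, -0.39 and -0.56.

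In the single knockdowns, fitted with no term for the run of library numbers, none of the 5 tested genes differed from siControl, against 0.933% of all genes for siYAP and 2.03% for siTAZ. CYTH3 was the 1 gene of the 5 with an unadjusted p under 0.05 in either, near the background of 2241 and 3023 of the 18858 genes. Its log2 fold change was -0.29 in siYAP (SE 0.072, adjusted p = 0.057) and -0.23 in siTAZ (SE 0.072, adjusted p = 0.10), and DESeq2 called it in both (adjusted p = 0.010 and 0.049). With the run as a replicate block edgeR also called CYTH3 in both (adjusted p = 0.0048 and 0.0195), where it called 1151 and 1942 of all genes. Against Control, CYTH3 differed in siYAP (-0.33, SE 0.072, adjusted p = 0.027) and missed the threshold in siTAZ (-0.26, SE 0.072, adjusted p = 0.0501). The siYAP call against Control was lost without siYAP library 18 or 28 or any 1 Control library, and when only these 2 groups were fitted (adjusted p up to 0.11). It was kept in 7 of 13 alternatives, over which the log2 fold change was -0.35 to -0.27.

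The co-knockdown was also set directly against each single knockdown. With no term for the run, no tested gene differed from siYAP, where 5.13% of all genes did, or from siTAZ, where 5.44% did. CYTH3 was lower in siYAP+TAZ by -0.18 against siYAP (SE 0.072, adjusted p = 0.17) and by -0.24 against siTAZ (SE 0.072, adjusted p = 0.056). At an unadjusted p under 0.05 there were 3 genes against siYAP (CYTH1, CYTH2 and CYTH3) and 2 against siTAZ (CYTH3 and ARF6), where 3613 and 3632 of the 18858 genes had such a p. DESeq2 called 0 and 1 of the 5, and 1292 and 1318 of all genes. With the run as a replicate block edgeR called CYTH1 against siYAP (adjusted p = 0.033). Against siTAZ it called CYTH3 and ARF6 (adjusted p = 0.010 and 0.025). Of all genes it called 2758 and 2795. The interaction asks whether the co-knockdown departs from the sum of the single log2 differences. It called none of the 5 and 0.0106% of all genes, which is 2 genes, and none of the 5 had an unadjusted p under 0.05 or was called by DESeq2. The CYTH3 interaction was 0.050 (95% interval -0.16 to 0.26).

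CYTH1 (chr17:78674048-78782297, reverse strand), an exchange factor first studied in leukocyte adhesion, had normalised read counts of 986, 1155 and 1178 in siControl and 1151, 1209 and 1422 in siYAP+TAZ, ranges that overlap. Its log2 fold change was 0.19 (SE 0.10, 95% interval -0.021 to 0.40, adjusted p = 0.22 by edgeR). With the run as a replicate block it was 0.187 and was called (adjusted p = 0.039 by edgeR), where 5389 of all genes were. CYTH2 (chr19:48469208-48482314, forward strand), also called ARNO, had 2130, 2457 and 2138 in siControl and 2379, 2348 and 2537 in siYAP+TAZ, again overlapping. Its log2 fold change was 0.11 (SE 0.083, 95% interval -0.063 to 0.29, adjusted p = 0.41). Of the CYTH2 exon bases, 3.45% are overlapped by a gene of the same strand and 4.06% by one of the opposite strand, and 4.1% of its 50-base stretches recur in other genes. Whether counting used strand was not stated in the sources used here, so reads of the overlapped stretches cannot be told apart. In siControl against Control none of the 5 tested genes differed, none had an unadjusted p under 0.05 and DESeq2 called none. Among all genes 0% did by edgeR (0 genes, with 398 at an unadjusted p under 0.05) and 0 by DESeq2. CYTH4 was at 0.27 (SE 0.39) on the log2 scale in that comparison.

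**Figure D2:**
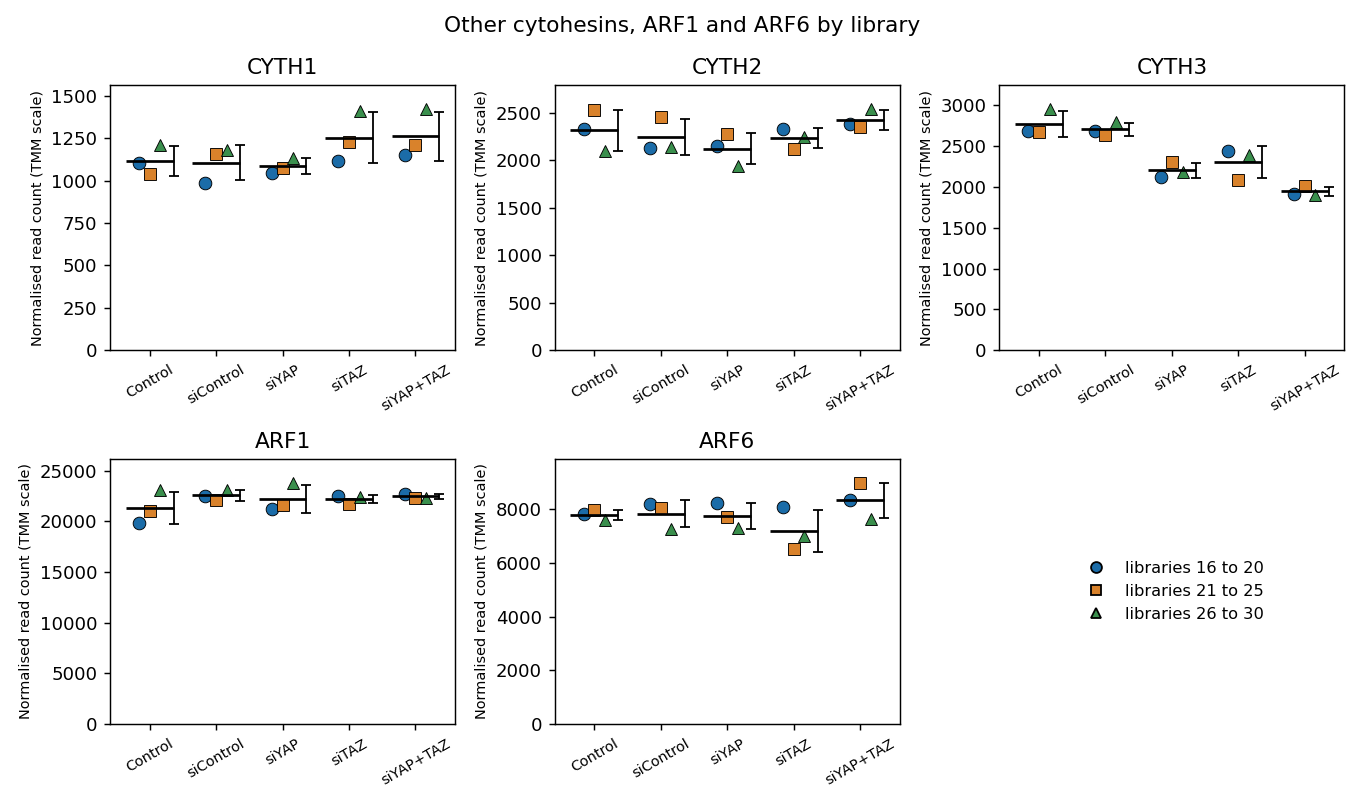
Normalised read count of CYTH1, CYTH2, CYTH3, ARF1 and ARF6 (vertical axes, from 0) in each library, by group. Points are libraries coloured by library number, lines are means and bars 1 SD (n = 3). The CYTH3 points of siYAP+TAZ, between 1905 and 2013, lie below all others of that gene.

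Neither of the substrates differed in any comparison fitted with no term for the run. ARF1 (chr1:228082708-228099212, forward strand), the most abundant of the 6, had normalised read counts of 22453, 22104 and 23120 in siControl and 22717, 22324 and 22327 in siYAP+TAZ. The log2 fold change was -0.0066 (95% interval -0.15 to 0.14, adjusted p = 0.96 by edgeR), and its sign turned under other scalings. ARF6 (chr14:49893079-49897054, forward strand, a single exon) had 8208, 8051 and 7252 in siControl and 8347, 8987 and 7647 in siYAP+TAZ, with a log2 fold change of 0.087 (95% interval -0.090 to 0.27, adjusted p = 0.54). In siTAZ libraries ARF6 had 8072, 6512 and 6987, a log2 fold change of -0.12 against siControl (95% interval -0.30 to 0.054, adjusted p = 0.52). The ranges of both genes overlapped between siControl and each knockdown.

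**Figure D3:**
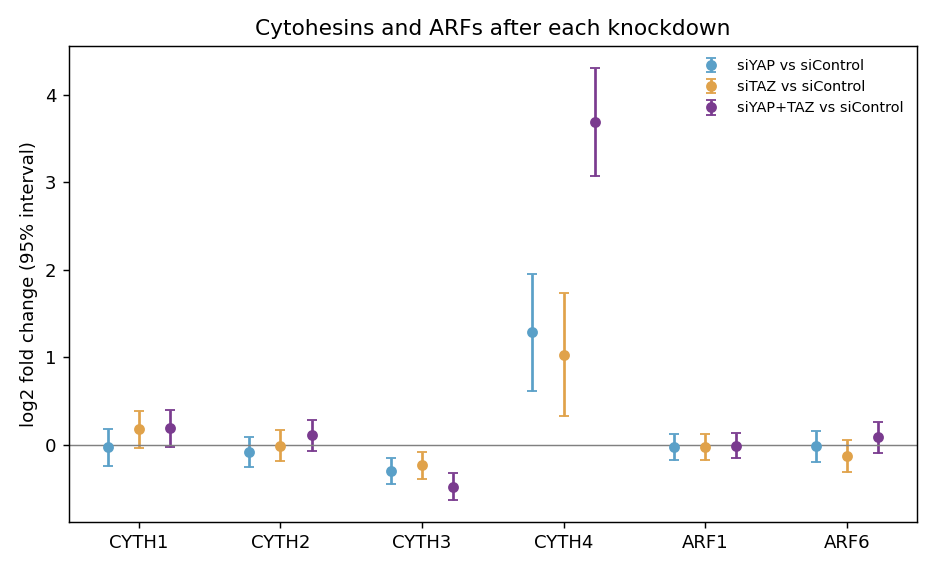
log2 fold change of each of the 6 genes against siControl (vertical axis) with its 95% interval, for siYAP, siTAZ and siYAP+TAZ. CYTH4 is the only gene above 1 in all 3, and is shown as a description since it was picked for this rise. CYTH3 lies below 0 in all 3, and the intervals of CYTH1, CYTH2, ARF1 and ARF6 span 0.

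The makeup of the cytohesin pool was read from the share of each gene in the reads of CYTH1 to CYTH4. In siControl, CYTH4 held 0.31% ± 0.028 (SD, n = 3) and CYTH3 44.6% ± 2.18. In siYAP+TAZ CYTH4 held 4.13% ± 0.87 and CYTH3 33.2% ± 2.11. In siYAP and siTAZ CYTH4 held 0.86% ± 0.29 and 0.67% ± 0.21, and CYTH3 40.4% ± 0.62 and 39.5% ± 1.57. CYTH4 thus remained the smallest of the 4 in every group. The summed normalised read count of the 4 was 6073 ± 233 in siControl and 5872 ± 276 in siYAP+TAZ, a difference within the spread. It was 5826 ± 326 in siTAZ and 5458 ± 208 in siYAP, where every library (5322 to 5698) lay below every siControl library (5816 to 6269).

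**Figure D4:**
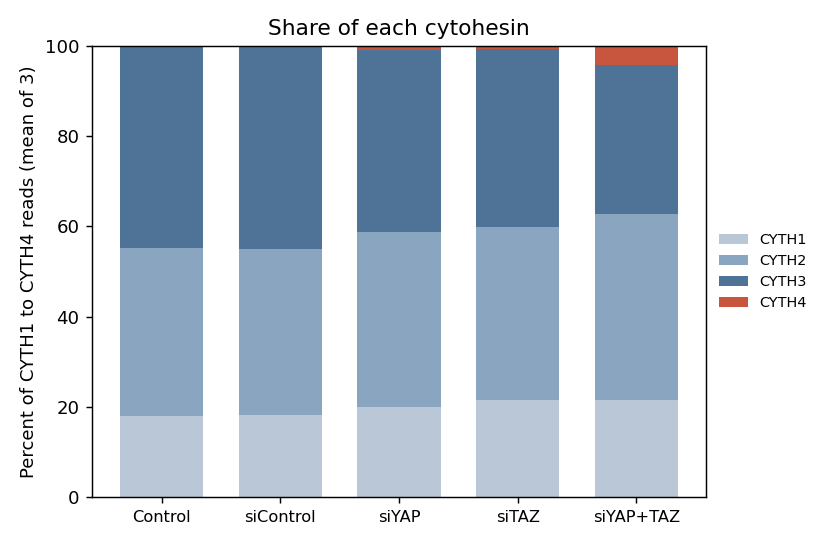
Mean percent of the reads of CYTH1 to CYTH4 that fell on each gene (stacked bars, n = 3 libraries per group, no error drawn). The CYTH4 segment is 0.31% in siControl and 4.13% in siYAP+TAZ, while that of CYTH3 is 44.6% and 33.2%.

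Levels of different genes were compared per kilobase of exon, as CPM (counts scaled to the same library total) per kb. In siControl the order was ARF1 (295.2 ± 6.75), ARF6 (83.4 ± 5.45), CYTH3 (19.7 ± 0.60), CYTH2 (10.2 ± 0.84), CYTH1 (6.04 ± 0.57) and CYTH4 (0.13 ± 0.0075), and each neighbouring pair was further apart than its spread. In siYAP+TAZ the order was the same, with CYTH3 at 14.2 ± 0.43, CYTH2 at 10.97 ± 0.46, CYTH1 at 6.88 ± 0.78 and CYTH4 at 1.69 ± 0.44 CPM per kb. With the length of the canonical transcript in place of all exon bases, CYTH3 at 18.4 ± 0.55 was below CYTH2 at 23.1 ± 0.96 CPM per kb in siYAP+TAZ, so the order of this pair depends on which transcripts are used.

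TEAD transcription factors are the main DNA-binding partners of YAP and TAZ, and the letters GGAATG of their known motif were searched on both strands in the RefSeq promoter windows (300 bases, GRCh38.p14), which were at hand for 5 of the 6 genes and not for CYTH4. The motif stood in 1 of their 10 windows, against 14.03% of 35116 windows of all genes. That window is the upstream promoter of CYTH3, the gene that fell, and the stretch that holds the motif is shown with it in capitals (chr7:6272815-6272874, reverse strand, 60 bases). The motif begins 230 bases before the RefSeq start.
CYTH3 upstream: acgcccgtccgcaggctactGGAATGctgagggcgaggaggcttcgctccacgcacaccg
A match of these letters is a description and not a binding site.

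Other genes of the ARF pathway were read from 5 lists holding 54 genes with a row. In siYAP+TAZ against siControl 11 of the 54 differed by edgeR (20.37%, against 18.4% of all genes), 9 higher and 2 lower. The median log2 fold change of the 54 was 0.0068, and that of all genes tested was -0.0048. In siYAP and in siTAZ 3 of the 54 differed from siControl (5.56%, against 0.933% and 2.03% of all genes), in each case IQSEC2, PSD4 and PIP5K1A.

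The differences among exchange factors other than the cytohesins were all upward: 3 of 8 with a row were higher, where 9.97% of all genes were, and 2 of them passed a log2 fold change of 1 as well, which 3.46% of all genes did in either direction. IQSEC2, which activates ARF6, had normalised read counts of 276, 309 and 307 in siControl and 1074, 1028 and 1421 in siYAP+TAZ, with no overlap. Its log2 fold change was 1.98 (SE 0.14, adjusted p = 4.71e-08). In siYAP it had 408, 502 and 545 (0.71, SE 0.14, adjusted p = 0.015) and in siTAZ 490, 482 and 575 (0.79, SE 0.14, adjusted p = 0.0058), and the co-knockdown exceeded each of them (1.28 and 1.19, adjusted p = 3.01e-05 and 5.58e-05). PSD4, an exchange factor of the EFA6 family that acts on ARF6, had 107, 101 and 121 in siControl and 210.5, 213.8 and 243.2 in siYAP+TAZ (log2 fold change 1.02, SE 0.15, adjusted p = 1.39e-04). In siYAP and siTAZ it was at 0.68 and 0.75 (adjusted p = 0.040 and 0.015). PSD3 of the same family was higher in the co-knockdown by 0.50 (SE 0.079, adjusted p = 2.48e-04). The median of the 8 was 0.12.

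Of 23 ARF GTPase-activating proteins, which return ARFs to the GDP-bound state, 1 differed (4.35%, against 18.4% of all genes). This was ASAP3, higher by a log2 fold change of 0.65 (SE 0.095, adjusted p = 1.15e-04), and the median of the list was -0.044. In siYAP+TAZ against siControl the other ARF GTPases ARF3, ARF4 and ARF5 did not differ by edgeR (0 of 3, none at an unadjusted p under 0.05 and none by DESeq2). Their log2 fold changes were 0.15, 0.095 and 0.20.

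Among 7 genes listed as cytohesin partners 4 differed, 3 higher and 1 lower, where 9.97% and 8.39% of all genes did. ARRB1, the scaffold beta-arrestin 1, was higher by 0.66 (SE 0.095, adjusted p = 9.61e-05). The median of the 7 was -0.19.

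Among 13 ARF effectors 3 differed (23.1%), near the 18.4% of all genes. PLD1, a phospholipase D that ARFs activate, was higher by 0.77 (SE 0.16, adjusted p = 0.0024). The phosphatidylinositol 4-phosphate 5-kinases, which make PIP2, differed in sign: PIP5K1A was lower by -0.43 (SE 0.069, adjusted p = 2.53e-04) and PIP5K1C higher by 0.37 (SE 0.11, adjusted p = 0.018). PIP5K1A was also lower in siYAP (-0.46, adjusted p = 0.0041) and siTAZ (-0.27, adjusted p = 0.049). The median of the 13 was 0.046.

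The genes on either side of CYTH4 were read in the same comparison. At lower coordinates lie RAC2, 22432 bases away, C1QTNF6 and IL2RB, and at higher coordinates ELFN2, 24241 bases away, MFNG and CARD10, all 6 on the reverse strand. Of the 6, 4 differed in siYAP+TAZ, all higher, where 9.97% of all genes were higher. RAC2 was at 3646 ± 488 in siControl and 5540 ± 425 in siYAP+TAZ (log2 fold change 0.60, SE 0.12, adjusted p = 0.0023). C1QTNF6, a secreted protein of the C1q and TNF-related family, was at 74.3 ± 14.9 and 161.6 ± 14.0 (1.13, SE 0.18, adjusted p = 3.09e-04). MFNG, a glycosyltransferase that modifies Notch, was higher by 0.76 (SE 0.22, adjusted p = 0.020) and the scaffold gene CARD10 by 0.32 (SE 0.098, adjusted p = 0.028). ELFN2 was at 0.45 (SE 0.19, adjusted p = 0.12), and IL2RB had 8 reads or fewer in every library.

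The genes whose pattern over the 15 libraries was most like that of CYTH4 were ranked by the root-mean-square difference of centred log2 CPM among 13209 other genes with a mean of at least 20 normalised reads. The nearest 5 were PRSS2 (0.48 on the log2 scale), a trypsinogen, ASB2 (0.54), a ubiquitin ligase subunit, BMF (0.59), a pro-apoptotic BH3-only protein, CA12 (0.62), a carbonic anhydrase, and CST4 (0.66), a secreted cystatin. PRSS2 and CST4 have near-identical relatives whose reads the counting could have split, so their values are uncertain. ASB2 had normalised read counts of 51.0, 56.4 and 53.6 in siControl and 304.4, 287.9 and 476.3 in siYAP+TAZ, and BMF 7.65, 14.8 and 7.51 and then 140.3, 156.8 and 424.0. In PRSS2, ASB2, BMF and CA12, as in CYTH4, library 30 was the highest of the 15, and in CST4 library 20 was. The 5 were picked on these same libraries, so a shared highest library follows in part from the choice. Library 30 was also the highest for IQSEC2, PSD4 and RAC2. None of the other 5 genes was close to CYTH4: CYTH1 ranked 2803, ARF6 4687, CYTH2 4847, ARF1 4852 and CYTH3 12281.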

How the data were processed

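PolyA RNA of 15 MDA-MB-231 libraries was sequenced as single reads. Per the methods and labels, the authors trimmed reads with cutadapt, aligned them to GRCh38 with STAR 2.4.2a and counted GENCODE genes in the UTAP pipeline, keeping genes with at least 5 reads in 1 sample. The deposited raw counts (18696737 to 30107312 per library) were used. The table's normalised and rlog columns, and the columns of the authors' own fold changes and p-values, were not used. The study describes 3 independent sets of experiments, and how the libraries divide among them is not given in the sources used here, so p-values measure the spread between these libraries. The 6 genes and the lists were chosen with earlier results of these data known.

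Counts of 18858 genes were fitted with edgeR 4.0.16 (R 4.3.3) using TMM factors, 1 coefficient per group and robust quasi-likelihood tests over all 15 libraries, two-sided, with Benjamini-Hochberg adjustment over all genes. The code was tested on simulated data. A gene differed at an adjusted p of at most 0.05. DESeq2 1.42.0, other scalings, a low-count filter, non-robust estimation, fits of fewer groups, a block for runs of library numbers, the other control group and leaving out each library were alternatives. Intervals are 95%, and SE is of the log2 fold change. Normalised read counts are counts scaled to the mean effective library size. log2 CPM for likeness used a prior count of 2.

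Genes named beside the 6 were YAP1 and WWTR1, for each list those past an adjusted p of 0.05 and an absolute log2 fold change of 1 plus the 3 of smallest p past 0.05, the 5 most like CYTH4, and the 3 nearest genes of the table on each side of it. Some genes that this rule names are not reported here. Coordinates, exon lengths and transcripts are from GENCODE 44 on GRCh38, whose gene names covered 15696 of the 18858 rows (83.2%). siRNA sequences are from the study's supplementary list of oligonucleotides, and promoter windows from RefSeq.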

Additional observations from a re-analysis of the deposited data

How the results depend on the processing

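The fall of CYTH3 in siYAP+TAZ against siControl kept its direction and its call in all 14 alternatives (log2 fold change -0.51 to -0.43, adjusted p at most 0.0014 by edgeR or DESeq2). CYTH4 in the same comparison lay between 3.46 and 3.96. The number of tested genes that differed moved as follows, and the cause was not tested. With DESeq2 it was 1 in siYAP and 1 in siTAZ against siControl and 1 in siYAP+TAZ against siTAZ, CYTH3 in each. With Control as the reference it was 1 in siYAP, and with a low-count filter 1 in siYAP+TAZ against siTAZ. Leaving out a library gave 0 to 1 in that last comparison, and 1 without siTAZ library 24 (CYTH3 -0.30, adjusted p = 0.025). Against Control, CYTH4 in siYAP kept its call in 8 of 13 alternatives (lowest adjusted p = 2.36e-04, by edgeR with the block). It was 1.56 in the fit of only those groups, with no call, and 1.25 to 1.81 when a library was left out. In siTAZ it passed the threshold with DESeq2 (1.31), library size only (1.31), the filter (1.30) and the block (1.28), and was 0.99 to 1.56 when a library was left out, passing only without library 19 (1.44). CYTH3 in siTAZ against Control, just short of the threshold, was called in 6 of 13 alternatives (lowest adjusted p = 0.0064, with the block).

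Library numbers share no label between groups, and samples of the same run of numbers correlated with a median r of 0.39 over 30 pairs, of which 26 were above 0.1, and those of different runs with a median r of -0.32 over 60 pairs, of which 16 were. With the run as a replicate block, the tested genes that differed were 2 in siYAP+TAZ against siControl (CYTH1 and CYTH3), 1 in siYAP and 1 in siTAZ (CYTH3, adjusted p = 0.0048 and 0.0195 by edgeR), 1 against siYAP (CYTH1) and 2 against siTAZ (CYTH3 and ARF6), and all genes that differed in siYAP+TAZ against siControl were 5389 in place of 3464. In siYAP and siTAZ against siControl they were 1151 and 1942 in place of 176 and 383 (400 and 802 with DESeq2), in siYAP+TAZ against siYAP and siTAZ 2758 and 2795 in place of 968 and 1025, in the interaction 122 in place of 2 (21 with DESeq2), and in siYAP and siTAZ against Control 1345 and 2608 in place of 276 and 642. Fits of only the groups compared gave 147 in siTAZ against siControl, 603 in siYAP+TAZ against siTAZ, and 76 and 131 in siYAP and siTAZ against Control.

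Near-zero log2 differences, none past the threshold, turned sign. ARF1 in siYAP+TAZ was 0.0026 with DESeq2, 0.0025 with its size factors, 0.038 with library size only, 0.0032 with the filter and 0.074 against Control, and 0.059 in siYAP and 0.059 in siTAZ against Control. With library size only, siYAP against siControl gave 0.022 for CYTH1, 0.027 for ARF1 and 0.032 for ARF6 (0.00065 with the filter), siTAZ gave 0.0070 for CYTH2, and siYAP against Control gave 0.013 for CYTH1 and 0.044 for ARF6 (0.0020 with the filter). Leaving out a library gave these ranges: ARF1 -0.021 to 0.011 in siYAP+TAZ, -0.074 to 0.014 in siYAP and -0.016 to 0.067 in siYAP+TAZ against siYAP. For CYTH1 they were -0.093 to 0.019 in siYAP, -0.063 to 0.059 in siControl against Control, -0.076 to 0.11 in siYAP+TAZ against siTAZ, -0.061 to 0.13 in the interaction and -0.091 to 0.020 in siYAP against Control. For CYTH2 they were -0.046 to 0.063 in siTAZ, -0.12 to 0.019 in siControl against Control and -0.12 to 0.012 in siTAZ against Control. For CYTH3 they were -0.058 to 0.016 in siControl against Control and -0.022 to 0.093 in the interaction. For ARF6 they were -0.069 to 0.031 in siYAP, -0.032 to 0.061 in siControl against Control and -0.055 to 0.035 in siYAP against Control. Of the 5 genes most like CYTH4, 5 remained with a prior count of 0.5 and 3 with a mean of at least 100, since PRSS2 and BMF have lower means. With 7 to 23 reads per control library, counting error limits the CYTH4 fold changes.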
